A study of Mus musculus with 68 samples.

Results

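Described here are 4 arrays of a set of 68: 2 of mouse motor neurons in which Pou3f1 and Hoxc6 were induced together (labelled Pou3f1;Hoxc6) and 2 in which Pou3f1 was induced alone (labelled Pou3f1). They were taken by their titles, with all 4 from cells sorted for the CD14 reporter and from batch 6. The cells came from mouse embryonic stem cells of a line labelled C57/BL6, grown as embryoid bodies. Retinoic acid and an agonist of Smoothened were added on day 2 to direct them to ventral spinal fates. Magnetic sorting for a CD2 or a CD14 surface reporter enriched motor neurons on day 5. Doxycycline then switched on the transgene during 30 h of culture on matrigel. All groups compared below share these steps. They are Pou3f1;Hoxc6 and Pou3f1 (2 arrays each), Pou3f1-FLAG, a second Pou3f1 line without Hoxc6 (2 arrays), Pou3f1;Hoxa5 (2 arrays) and YFP, the control transgene (4 arrays, 2 of batch 6 and 2 of batch 7), all of CD14 cells. Of CD2 cells they are Hoxc6 alone (2 arrays, batch 5) and YFP (4 arrays, batches 1 to 3). The parental lines are H4 (CD2, 1 array in each of batches 2, 4 and 5) and E3 (CD14, 1 array of batch 6). Ranges given for the other CD14 arrays of batch 6 take in E3 and Pou3f1;DNLhx3 (2 arrays) beside the CD14 groups named above. Values set side by side across batches are not adjusted for batch, while the tests are. The promoters that drive the reporters and transgenes, and whether a line was a single clone, are not given in the labels.

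Pou3f1 is a POU-domain transcription factor found in phrenic motor neurons, which sit in the neck part of the spinal cord and move the diaphragm, and in some motor neurons of the limb. Hox genes lie in clusters whose order follows the head-to-tail axis. Hoxa5 and Hoxc5 belong to the cervical levels where phrenic neurons form, while Hoxc6 belongs to the forelimb levels just below, where with its cofactor Foxp1 it acts in motor neurons of the lateral motor column. Limb motor neurons of that column make retinoic acid with Aldh1a2. Setting Pou3f1;Hoxc6 against Pou3f1 asks what a limb-level Hox gene adds in cells that already carry the phrenic factor.

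Values are log2 array values made by the authors with RMA, and a difference of 1 is a doubling. Genes were tested with limma over all 68 arrays, and those with an adjusted p under 0.05 (Benjamini-Hochberg over 19938 genes) are the ones described as risen or fallen. Errors after ± are standard errors of that fit. Nothing in the labels tells whether replicates were separate cultures, so a p-value reflects only the spread among these arrays, which may be technical. Pou3f1;Hoxc6 and Pou3f1 differed in Pou3f1 level and in nuclear RNAs as well as in Hoxc6, as given below, and these were not separated. Between them 1788 genes were called, 8.97% of those tested, with 931 higher in Pou3f1;Hoxc6 (4.67%) and 857 lower (4.3%). That balance was not stable: with 1 array left out 36.5% to 45.1% of the called genes were higher, and 45.6% after a further quantile normalization, against 52.1% as given. Most changes were small: 81 genes rose and 92 fell by more than 1, and 14 rose and 17 fell by more than 2. With 1 array left out the count fell to between 573 (without Pou3f1;Hoxc6 replicate 2) and 914 (without Pou3f1 replicate 1), with 584 without Pou3f1 replicate 2 and 741 without Pou3f1;Hoxc6 replicate 1. The 15 largest rises and 15 largest falls, all at least 3.93-fold, kept their call without any 1 of the 4 arrays. Without batch terms in the fit 45 of the 112 called genes under the naming rule lost their call, among them Hoxa5 (adjusted p = 0.102), Plppr5 (0.0712) and Cbln2 (0.0682) of those 30, and Rarb (0.0887), Ntm (0.123), Cntn5 (0.0653), Unc5b (0.133), Ntrk3 (0.0533), Pcdh8 (0.318) and Syn1 (0.163). Detection on the arrays was not examined, so a difference from a reading of about 7 or lower, as for Hoxc6, Aldh1a2, Calb1 or Rgs4 in the Pou3f1 arrays, may be set by background on the dim side.

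Nuclear and small nucleolar RNAs also differed between the groups. The labels give no RNA preparation, so preparation and the lines themselves cannot be told apart here. Malat1, an abundant nuclear noncoding RNA, read 12.11 and 11.98 in the Pou3f1;Hoxc6 arrays and 10.67 and 10.36 in the Pou3f1 arrays. Its difference was 1.53 ± 0.37 (n = 2 each, adjusted p = 0.0056), and the call was lost without Pou3f1;Hoxc6 replicate 1 (adjusted p = 0.0611) or without Pou3f1 replicate 2 (0.0924). Small nucleolar RNAs, which guide the modification of ribosomal RNA in the nucleus, were higher too. Of 54 such genes 15 rose and 0 fell, with a median of 0.41 against 0.07 for all genes, and their mean was 8.46 and 8.63 in the Pou3f1;Hoxc6 arrays against 8.09 and 8.19. That count was 0 without Pou3f1;Hoxc6 replicate 1, 1 without Pou3f1 replicate 2, 6 without Pou3f1;Hoxc6 replicate 2 and 7 without Pou3f1 replicate 1. Examples are Snord35a (1.17 ± 0.27, adjusted p = 0.0040), Snord53 (1.11 ± 0.24) and Snord73b (1.10 ± 0.27), each of which lost its call without Pou3f1;Hoxc6 replicate 1 (adjusted p of 0.0556 to 0.169). Snord35a and Snord73b also lost it without Pou3f1 replicate 2 (0.0829 and 0.0701). Snhg11, a host gene of such RNAs, rose by 0.90 ± 0.21 and kept its call without any 1 array.

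The Pou3f1-FLAG arrays of the same batch carried Pou3f1 without Hoxc6 and read Malat1 at 12.21 and 12.25, as high as the Pou3f1;Hoxc6 arrays. Against them 316 genes changed (1.58% of those tested, 181 higher, 0.908%, and 135 lower, 0.677%). In that comparison 0 of the 54 small nucleolar RNA genes were called (median 0.03), Malat1 differed by -0.18 and Snhg11 by 0.18. It shares the Pou3f1;Hoxc6 arrays with the main comparison, so its values are given beside the main ones as a second measurement of the same arrays and not as independent support. The Pou3f1-FLAG arrays also stood apart from each other, with a cell cycle list mean of 8.72 and 10.16, a progenitor list mean of 9.24 and 10.09 and a Notch list mean of 8.29 and 8.80. Without either of them 197 genes were called. Usp17ld, a deubiquitinating enzyme gene, shows how far the controls can differ: it read 6.96 and 6.94 with Pou3f1;Hoxc6, 9.05 and 8.53 with Pou3f1, and 6.96 and 7.02 with Pou3f1-FLAG. Its fall was 1.84 on the log2 scale against Pou3f1 (adjusted p = 6.30e-08), and its difference from Pou3f1-FLAG was -0.04. The part of a possible preparation difference in the small changes was not tested.

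**Figure D1:**
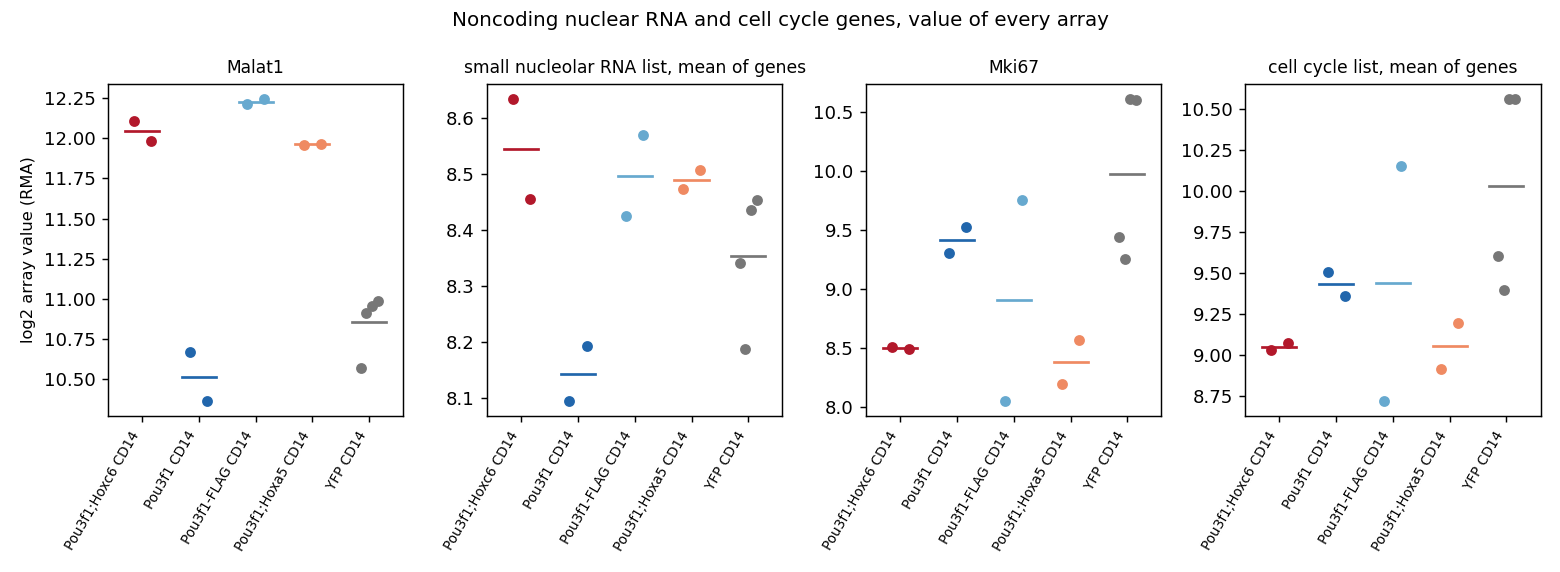
Log2 array values of Malat1 and Mki67 and mean log2 values of the small nucleolar RNA and cell cycle gene lists, for each array of 5 CD14 groups (points are arrays, lines are group means). Malat1 was 10.36 and 10.67 in the Pou3f1 arrays and 11.98 to 12.25 in the Pou3f1;Hoxc6 and Pou3f1-FLAG arrays.

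The samples are labelled as ES cells, while the protocol describes sorted motor neurons, and the markers were those of motor neurons. Markers of motor neurons in general (13 genes) averaged 11.49 and 11.53 with Pou3f1;Hoxc6 and 11.40 and 11.42 with Pou3f1, within the 10.92 to 11.62 of the other 9 CD14 arrays of the batch. Slc18a3, the transporter that loads acetylcholine into vesicles, read 12.96 to 13.04 in the 4 arrays. The mean of 12 pluripotency genes was 6.93 and 6.94 against 6.72 and 6.80. Markers of neural progenitors and radial glia (18 genes) averaged 9.30 and 9.31 against 9.70 and 9.78. In that list 0 rose and 2 fell, Nkx2-9, a ventral progenitor factor (-1.58, a call lost without any 1 array, adjusted p of 0.0783 to 0.119), and Msi1, an RNA-binding protein of neural stem cells (-0.59, lost without Pou3f1 replicate 2, adjusted p = 0.0723). Cell cycle genes (19) averaged 9.03 and 9.07 against 9.36 and 9.51, and 0 of them were called. Mki67, a proliferation marker, read 8.51 and 8.49 against 9.31 and 9.53 (adjusted p = 0.139). In bulk RNA, fewer cells of a type and less RNA per cell cannot be told apart.

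Markers of other cell types, with those of progenitors and pluripotent cells, were called at the share of all genes, 9 of 106 (8.49%, against 8.97%). One of them, Rgs4, marks hindbrain motor neurons and is given below. Lists of dorsal and sensory neurons (11 genes), mesoderm and endothelium (14) and epithelium (11) had 0 called genes. En1 and Evx1, factors of ventral interneurons, rose by 0.46 and 0.59, and Foxp2, found in the same cells, fell by 0.95 on the log2 scale. Sox10, a glial and neural crest factor, rose by 0.43, and the pluripotency genes Dppa5a and Klf4 rose by 0.58 and 0.46. Each of these 6 calls was lost when Pou3f1;Hoxc6 replicate 2 was left out (adjusted p of 0.0512 to 0.231), and none of the 6 genes was called against Pou3f1-FLAG.

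Promoter sequence is shown for 3 of the genes with the largest changes, because they hold a motif that POU or Hox proteins are known to bind. The motifs searched were the octamer ATGCAAAT, bound by POU factors, and TGATTNAT, bound by Hox proteins together with their partner Pbx, on both strands of the 300 bases from 250 before to 50 after each RefSeq start site (build GRCm38.p6). Of the 30 genes with the largest rises and falls, 21 had such a window. ATGCAAAT was found in 2 of 15 windows of the rises (13.3%), in 0 of 13 of the falls and in 1.74% of all 32851 windows. TGATTNAT was found in 0 windows of the rises, in 1 of 13 of the falls (7.69%) and in 3.22% of all. The 250 bases before the start site are printed in the direction of transcription with the match in capitals. Aldh1a2 is at chr9:71215539-71215788 (+ strand, match starting at -84), Rgs4 at chr1:169747643-169747892 (- strand, complement of the octamer starting at -157) and Sst at chr16:23890845-23891094 (- strand, TGATTNAT starting at -113). Each held 1 match and the motifs did not overlap. A match is a description of the letters only.
Aldh1a2: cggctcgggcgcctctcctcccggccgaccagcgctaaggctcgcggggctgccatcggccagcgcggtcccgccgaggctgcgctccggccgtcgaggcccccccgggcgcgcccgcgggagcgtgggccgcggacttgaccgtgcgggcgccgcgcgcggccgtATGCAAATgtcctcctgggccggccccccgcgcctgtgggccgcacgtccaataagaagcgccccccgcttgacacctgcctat
Rgs4: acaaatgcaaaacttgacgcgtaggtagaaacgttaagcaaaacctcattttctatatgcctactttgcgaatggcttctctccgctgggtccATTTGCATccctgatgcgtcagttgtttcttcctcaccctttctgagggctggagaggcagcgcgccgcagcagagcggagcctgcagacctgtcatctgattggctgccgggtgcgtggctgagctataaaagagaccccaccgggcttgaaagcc
Sst: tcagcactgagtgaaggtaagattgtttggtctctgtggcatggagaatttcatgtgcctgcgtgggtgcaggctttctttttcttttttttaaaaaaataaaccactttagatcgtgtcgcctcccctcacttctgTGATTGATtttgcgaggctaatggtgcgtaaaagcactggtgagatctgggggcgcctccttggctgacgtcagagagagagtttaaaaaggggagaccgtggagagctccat

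The induced genes came first. Hoxc6 read 9.84 and 10.00 in the Pou3f1;Hoxc6 arrays and 6.33 and 6.51 in the Pou3f1 arrays, a rise of 3.50 ± 0.19 (n = 2 each, adjusted p = 2.57e-16). All other 11 CD14 arrays of the batch read 6.29 to 6.69, so the groups did not overlap. Pou3f1 itself was also higher with Hoxc6, at 10.29 and 10.33 against 8.76 and 9.07, by 1.39 ± 0.19 (adjusted p = 2.48e-06). In the Pou3f1 arrays it stood above every CD14 YFP array (8.31 to 8.48, batches 6 and 7), although that difference, 0.45, did not pass the test (adjusted p = 0.583). Against Pou3f1-FLAG (9.03 and 8.86) the rise was 1.36. Whether the probes of these genes lie within the transgenes is not known here, so transgene and endogenous transcripts were not separated, and the groups differ in the Pou3f1 level as well as in Hoxc6.

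Hox genes of the cervical levels rose alongside. Hoxc5 read 12.04 and 11.99 with Pou3f1;Hoxc6 and 8.25 and 8.28 with Pou3f1, a rise of 3.75 ± 0.54 (13.5-fold, adjusted p = 8.48e-06). Hoxc4 read 11.53 and 11.54 against 8.97 and 8.98, a rise of 2.55 ± 0.35 (adjusted p = 3.88e-06). These genes are neighbours of Hoxc6 in the HoxC cluster, where transcripts can overlap, so signal from neighbouring genes cannot be told apart here. Hoxa5, in another cluster and required for phrenic neurons to form, read 12.09 and 12.14 against 9.93 and 9.79, a rise of 2.25 ± 0.36 (adjusted p = 4.11e-05). It was also above the Pou3f1;Hoxa5 arrays, neither of which passed 11.01. Hoxa4 rose by 0.78 ± 0.19, a call lost without Pou3f1;Hoxc6 replicate 2 (adjusted p = 0.0757) or Pou3f1 replicate 2 (0.0648). In all, 4 of 7 measured paralogues of groups 4 and 5 rose and 0 fell (median 0.78), where 4.67% of all genes were higher.

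Of 11 paralogues of groups 6 to 9, 3 rose and 0 fell (median 0.43), where 4.67% of all genes were higher. Their mean was 7.72 and 7.75 against 7.06 and 7.07, and 7.03 to 7.25 over the other 11 CD14 arrays of the batch. Both the count and the mean include the induced Hoxc6, so the shift of the other members is smaller. With only the CD14 arrays of batch 6 in the fit 7 rose. The 3 were Hoxc6, Hoxc8, the next gene towards the tail end (0.70 ± 0.15), and Hoxa9 (0.43 ± 0.11, lost without Pou3f1;Hoxc6 replicate 1, adjusted p = 0.105, or Pou3f1 replicate 2, 0.133). Hoxc9, which marks thoracic levels, read 7.07 and 6.97 against 7.05 and 6.87 (0.06, adjusted p = 0.873). Of 7 paralogues of groups 1 to 3, Hoxa3 rose by 0.73 and Hoxd3 fell by 1.22 on the log2 scale, and both calls were lost without any 1 array (adjusted p of 0.0919 to 0.152). Of 12 of groups 10 to 13, Hoxd10 rose by 0.53, likewise lost without any 1 array (0.0520 to 0.194). Among 11 Hox cofactor genes Tshz1, a zinc finger factor, rose by 0.89 ± 0.23, a call that held without Pou3f1;Hoxc6 replicate 1 and was lost without each of the other three (adjusted p of 0.0620 to 0.116).

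Aldh1a2, which makes retinoic acid and is a hallmark of limb motor neurons, had the largest rise of the comparison. It read 12.74 and 12.62 with Pou3f1;Hoxc6 and 7.01 and 6.85 with Pou3f1. The other 11 CD14 arrays of the batch lay between 6.19 and 8.05, far below the pair. The difference was 5.76 ± 0.46 (n = 2 each, adjusted p = 2.96e-11), and 5.60 against Pou3f1-FLAG. Pou3f1;Hoxa5 read 8.05 and 7.91, a difference of 1.05 from Pou3f1 (adjusted p = 0.231).

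Genes of the retinoid pathway moved in both directions. With Aldh1a2 included, 4 of 19 measured were higher and 2 lower (median 0.21), against 4.67% and 4.3% of all genes. Rarb, a retinoic acid receptor and a classic target of retinoic acid, read 12.08 and 12.07 against 10.55 and 10.44 and rose by 1.58 ± 0.27 (adjusted p = 0.000103). Rdh10, which makes the retinal that Aldh1a2 uses, rose by 0.93 ± 0.17 (adjusted p = 0.000208). Cyp26b1, which degrades retinoic acid, rose by 0.79 ± 0.26 (adjusted p = 0.0449), a call lost without any 1 array (0.164 to 0.184). Rxrg, a partner receptor, fell: it read 11.14 and 11.06 against 12.34 and 12.35, lower by 1.25 ± 0.14 (adjusted p = 6.30e-08). Rara, another receptor, fell by 0.41 on the log2 scale, also a call lost without any 1 array (adjusted p of 0.0766 to 0.238).

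Most genes of the phrenic list rose. Of 12 measured genes of the phrenic list, 9 rose and 0 fell, with a median of 1.38, where 4.67% of all genes were higher. They were Hoxc5, Hoxc4, Hoxa5, Pou3f1 and Tshz1, given above, with Ptn, Cdh9, Cdh10 and Negr1. Among them Pou3f1 was induced in both groups, and Hoxc5 and Hoxc4 neighbour Hoxc6 in the HoxC cluster. The count was 7 or 8 with 1 array left out and 6 without batch terms. Ptn, a secreted growth factor, read 10.78 and 10.81 against 8.95 and 8.98 and rose by 1.84 ± 0.28 (adjusted p = 2.14e-05). Negr1, a neuronal adhesion protein, rose by 1.09 ± 0.21 (adjusted p = 0.000617). Not called were Alcam, an adhesion protein of phrenic neurons (9.53 and 9.42 against 8.83 and 8.83, 0.64), Pcdh10 (10.60 and 10.64 against 10.67 and 10.61, -0.02) and Cdh6 (-0.05). Against Pou3f1-FLAG 10 of the 12 rose, Alcam being the tenth at 1.56 (adjusted p = 0.0079). Fewer rose when any 1 array of either group was left out, with the fewest without Pou3f1;Hoxc6 replicate 2.

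Of 14 measured genes of the lateral motor column list, 4 rose and 0 fell (median 0.17), where 4.67% of all genes were higher. They were Aldh1a2, Cpne4, Foxp1 and the induced Pou3f1. Cpne4, a calcium-binding protein of limb motor pools, read 8.51 and 8.43 against 7.24 and 7.23 and rose by 1.23 ± 0.20 (adjusted p = 3.92e-05). Foxp1, the Hox cofactor that sets limb motor neuron identity, read 12.20 and 12.15 against 11.31 and 11.30. Its rise of 0.87 ± 0.23 (adjusted p = 0.0119) was lost without any 1 array, with adjusted p up to 0.0918. Foxp1 was already 1.01 higher in Pou3f1 than in YFP cells (adjusted p = 0.0363). Lhx1, which marks a division of the limb motor neurons, read 9.35 and 9.40 against 9.02 and 8.74 (adjusted p = 0.439). Etv4, a factor of limb motor pools that depends on signals from the limb, read 7.63 and 7.78 against 9.03 and 9.03 (-1.33 ± 0.53, adjusted p = 0.106).

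In the lists of trunk motor columns the calls were falls. Zeb2, a zinc finger repressor on the hypaxial and preganglionic list, read 8.10 and 8.15 against 11.15 and 11.25, below all other 11 CD14 arrays of the batch (9.19 to 12.02). It fell by 3.08 ± 0.30 on the log2 scale (8.43-fold lower, adjusted p = 3.11e-09). Zfhx4, a zinc finger and homeodomain factor, fell by 1.34 ± 0.22. Those 2 of 8 genes were lower, where 4.3% of all genes were, and 0 were higher (median -0.63). Of 5 genes of the median motor column, Fgfr1, a growth factor receptor, fell by 0.71 on the log2 scale, a call lost without any 1 array (adjusted p of 0.113 to 0.218), and Lhx3 differed by 0.66 (adjusted p = 0.131).

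Of 13 genes shared by all motor neurons 3 rose and 1 fell, against 4.67% and 4.3% of all genes. Their median was 0.23 against 0.07 for all genes, and each of these 4 changes was under 1. Isl1, a LIM homeodomain factor, rose by 0.54 ± 0.15, Mnx1, a homeodomain factor, by 0.56 ± 0.17, and Prph, an intermediate filament protein, by 0.61 ± 0.16. All 3 calls were lost without any 1 array (adjusted p of 0.0662 to 0.183). Isl2, a close relative of Isl1, read 11.16 and 11.05 against 12.03 and 12.12 and fell by 0.97 ± 0.23 (adjusted p = 0.0050), a call lost without Pou3f1;Hoxc6 replicate 2 (0.0726) or Pou3f1 replicate 2 (0.0660). Against Pou3f1-FLAG only Isl2 of these 4 was called (-1.31, adjusted p = 0.000267). Isl1 differed there by 0.33 and Mnx1 by 0.02.

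**Figure D2:**
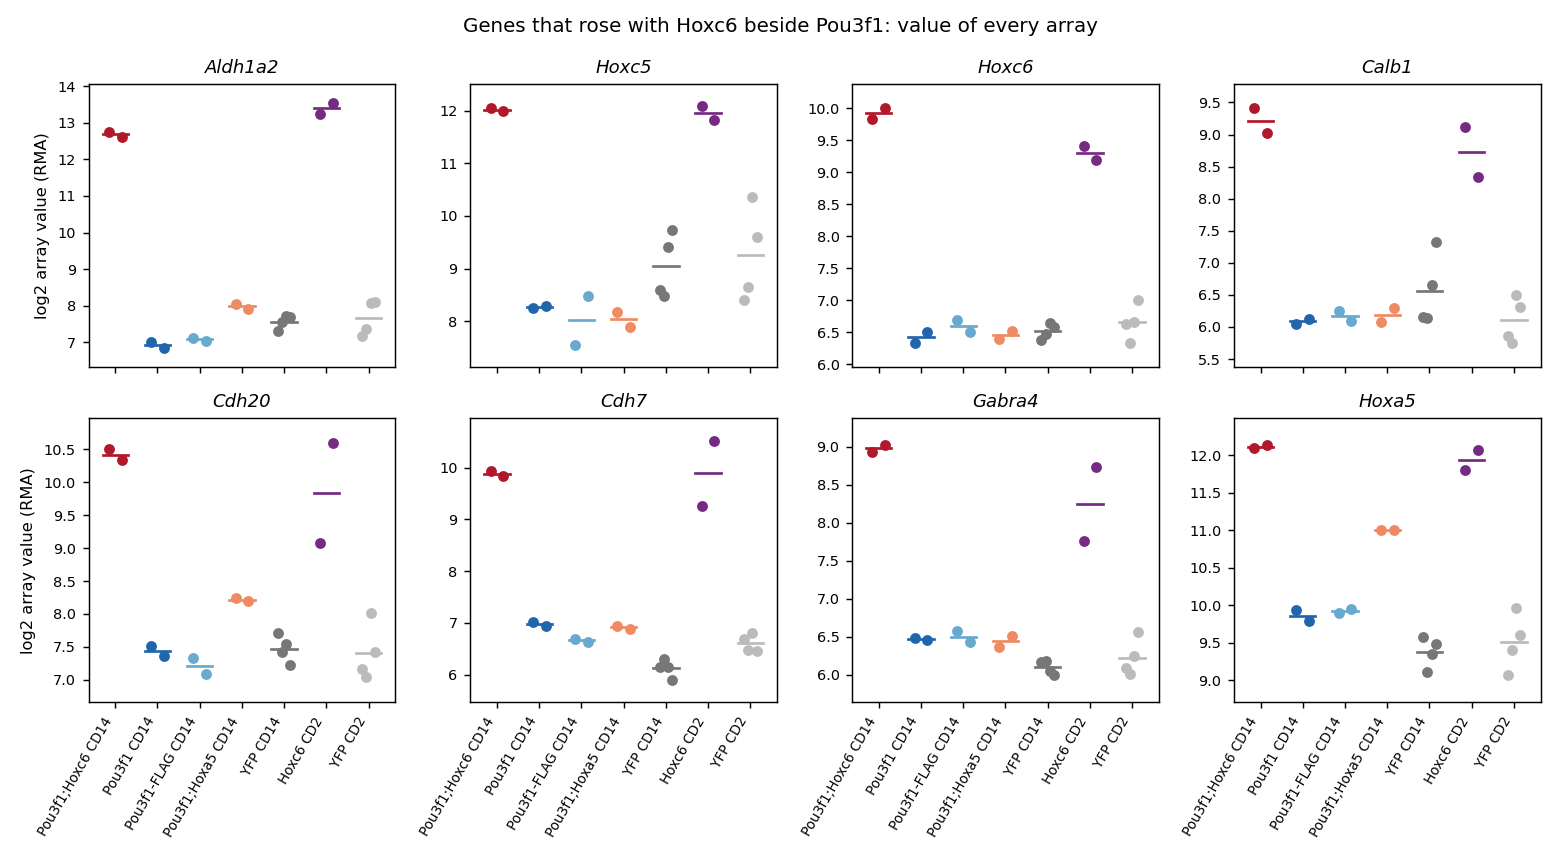
Log2 array values of 8 genes that rose, for each array of 7 groups (points are arrays, lines are group means). Aldh1a2 was at 12.62 and 12.74 in the Pou3f1;Hoxc6 arrays and between 6.85 and 8.05 in the other CD14 arrays drawn.

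Cell adhesion genes changed by family. Cadherins are adhesion proteins whose combinations sort motor neurons into pools. Of 13 measured type II cadherins 5 rose and 2 fell (median 0.31), against 4.67% and 4.3% of all genes. Cdh20 read 10.51 and 10.33 against 7.51 and 7.36 and rose by 2.98 ± 0.32 (adjusted p = 3.17e-08). Cdh7 read 9.93 and 9.83 against 7.02 and 6.95 and rose by 2.89 ± 0.27 (adjusted p = 1.33e-09). Neither overlapped any other CD14 array of the batch, whose highest values were 8.66 for Cdh20 and 7.02 for Cdh7. Cdh10 read 11.01 and 11.15 against 9.63 and 9.80 and rose by 1.37 ± 0.21. Cdh22 rose by 0.92 ± 0.19, a call lost without 1 of the 4 arrays (highest adjusted p = 0.0556).

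Cdh9 had the widest spread among controls. It read 11.66 and 11.46 with Pou3f1;Hoxc6, 9.58 and 9.62 with Pou3f1, 7.80 and 9.60 with Pou3f1-FLAG and 5.58 to 5.87 with YFP. The rise over Pou3f1 was 1.96 ± 0.62 (adjusted p = 0.0397) and was lost without any 1 array, with adjusted p of 0.141 to 0.179. Pou3f1 alone was 3.73 above YFP (adjusted p = 0.000887), and the levels of Pou3f1-FLAG lay below or at those of Pou3f1. Cdh8 fell by 1.86 ± 0.48, a call lost without any 1 array, and Cdh11 fell by 0.77 ± 0.15 and kept its call. Against Pou3f1-FLAG 5 of the 13 type II cadherins were higher and 0 lower, so neither of these falls was called there.

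In the remaining adhesion families more members fell than rose, where 4.67% of all genes were higher and 4.3% lower. Of 14 other cadherins 0 rose and 4 fell: Cdh4 (-0.47), and Celsr2 (-0.85), Celsr3 (-0.44) and Dchs1 (-0.55), which are large cadherins of planar cell polarity. Dchs1 and Celsr2 kept their calls without any 1 array, while Celsr3 lost it without Pou3f1;Hoxc6 replicate 1 (adjusted p = 0.0656), Cdh4 without Pou3f1;Hoxc6 replicate 2 (0.0564), and both without Pou3f1 replicate 2 (0.126 and 0.0839). Against Pou3f1-FLAG 0 of the 14 were called, and Celsr2 differed by -0.25. Of 10 delta protocadherins Pcdh17 rose by 1.46 ± 0.20 (9.59 and 9.62 against 8.25 and 8.03). Pcdh9 (-0.97), Pcdh8 (-0.84) and Pcdh19 (-0.89) fell, the last a call that, with 1 array left out, held only without Pou3f1 replicate 1. Against Pou3f1-FLAG 1 of the 10 was higher and 1 lower.

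Of 25 adhesion genes with immunoglobulin domains 2 rose and 8 fell (median -0.34), against 4.67% and 4.3% of all genes. Chl1, which helps axons grow, read 9.26 and 9.26 against 11.60 and 11.70 and fell by 2.38 ± 0.34 on the log2 scale (adjusted p = 9.45e-06). Ntm, Opcml and Cntn5, adhesion proteins anchored to the membrane by a lipid, fell as well (-2.02, -1.77 and -1.68). These 4 calls held without any 1 array. Against Pou3f1-FLAG the same family had 2 higher and 3 lower, and Opcml differed by -0.66 (adjusted p = 0.928). Tenm3, a teneurin that matches partner neurons across synapses, read 9.66 and 9.64 against 12.01 and 12.12 and fell by 2.42 ± 0.18 (adjusted p = 7.13e-12).

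Axon guidance genes were called in both directions, where 4.67% of all genes were higher and 4.3% lower. The Slit, Robo, netrin and Unc5 list, with 1 of 16 each way, was near those shares. Of 31 semaphorins, neuropilins and plexins 3 rose and 6 fell (median -0.08), with 0 or 1 higher and 3 or 4 lower when 1 array was left out. Nrp2, a semaphorin receptor, read 10.48 and 10.47 against 12.08 and 12.19 and fell by 1.66 ± 0.20 on the log2 scale (adjusted p = 2.05e-07). Sema5b and Sema3d, guidance ligands, fell by 1.55 ± 0.17 and 1.51 ± 0.30. Plxna2, a plexin receptor, fell by 0.91, a call lost without any 1 array (adjusted p of 0.0805 to 0.224). Of 21 Eph receptors and ephrins 0 rose and 3 fell, Ephb1 (-1.78 ± 0.24), Epha6 (-1.37 ± 0.39) and Ephb3 (-0.37 ± 0.12), all receptors for ephrins, and the last 2 calls were lost without any 1 array (adjusted p of 0.0731 to 0.276). Of 16 Slit, Robo, netrin and Unc5 genes the netrin receptor Unc5b fell by 1.18 ± 0.22 and the Slit receptor Robo2 rose by 0.56 ± 0.18 (adjusted p = 0.0494), a call lost without any 1 array (0.130 to 0.269). Against Pou3f1-FLAG the balance differed, with 3 higher and 3 lower of the semaphorin list, 0 and 2 of the Eph list, and 3 and 0 of the Slit, Robo, netrin and Unc5 list.

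**Figure D3:**
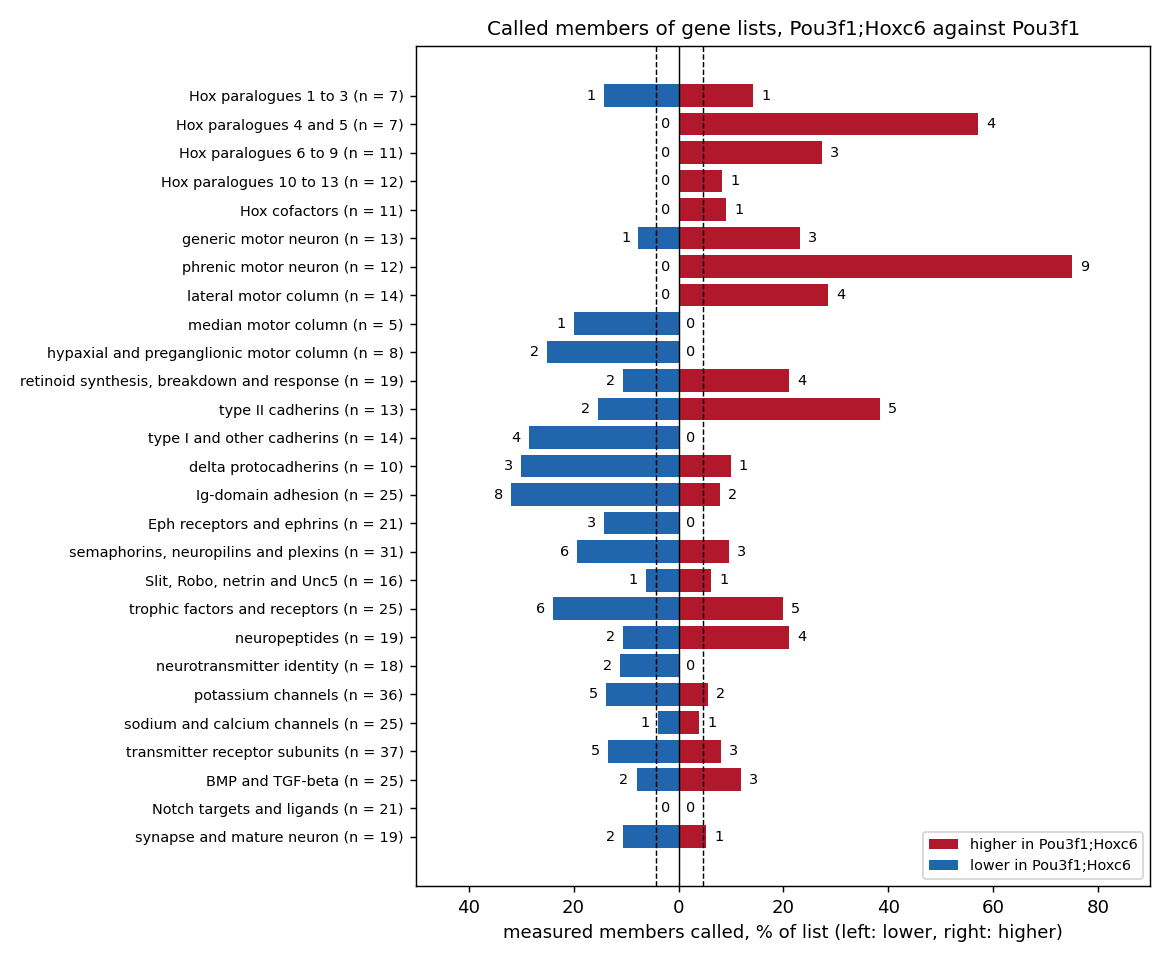
Share of the measured members of each gene list that were called higher (right, red) or lower (left, blue) in Pou3f1;Hoxc6 than in Pou3f1, with the count at each bar and list size in brackets. Dashed lines mark the shares over all genes, 4.67% higher and 4.3% lower, and the phrenic list stands at 9 of 12 higher.

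Of 25 trophic factors and receptors 5 rose, all ligands, and 6 fell, all receptors (median 0.19), against 4.67% and 4.3% of all genes. With 1 array left out 1 to 4 rose and 4 fell. Ntrk3, the receptor for neurotrophin 3, read 7.96 and 7.71 against 9.80 and 9.86 and fell by 2.00 ± 0.30 on the log2 scale (adjusted p = 1.42e-05). Igf1r, the receptor for insulin-like growth factor 1, fell by 1.14 ± 0.12, although its difference from Pou3f1-FLAG was -0.43 (adjusted p = 0.0589). Of the 25 genes, 2 were called higher and 3 lower against Pou3f1-FLAG. Ret, the receptor for GDNF on motor neurons, read 11.41 and 11.33 against 12.20 and 12.34 and fell by 0.90 ± 0.16. Met, the receptor for hepatocyte growth factor, fell by 0.95 ± 0.26, a call lost without any 1 array (adjusted p of 0.0540 to 0.179). The other receptors were Fgfr1, given above, and Cntfr (-0.44). The ligands that rose were Ptn and, by 0.85 or less, Igf1, Bdnf, Gdnf and Nrtn. Each of the last 4 lost its call in at least 2 of the 4 fits with an array left out (adjusted p up to 0.206).

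Signalling genes outside these families included some of the largest changes. Tgfb2, a secreted growth factor, read 10.96 and 10.94 against 8.44 and 8.69 and rose by 2.38 ± 0.25 (adjusted p = 1.21e-08). Bmp4, another, rose by 1.24 ± 0.37 and lost its call without any 1 array (adjusted p of 0.119 to 0.159). Bmpr2, a receptor for such factors, fell by 0.79 ± 0.09 but differed by -0.09 from Pou3f1-FLAG. Socs2, which damps cytokine signals, rose by 2.01 ± 0.30 (12.23 and 12.17 against 10.22 and 10.17), and a second probe set for it differed by 1.48. Rgs4, a brake on G-protein signals, read 9.51 and 9.12 against 6.23 and 6.37 and rose by 3.02 ± 0.29 (adjusted p = 2.04e-09). Crp, known as a plasma protein of inflammation, read 11.10 and 11.04 against 7.59 and 7.60 and rose by 3.47 ± 0.39 (adjusted p = 6.30e-08). Of 21 Notch targets and ligands 0 were called.

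A neuropeptide gene had the largest fall of the comparison. Sst, the peptide somatostatin, read 9.54 and 9.36 against 12.68 and 12.60 and fell by 3.19 ± 0.34 on the log2 scale (9.12-fold lower, adjusted p = 3.16e-08). The 4 CD14 YFP arrays read it at 12.96 to 13.63. Cartpt, another neuropeptide, read 8.14 and 8.45 against 11.17 and 10.81 and fell by 2.69 ± 0.51 (adjusted p = 0.000437). Grp, gastrin-releasing peptide, rose by 1.19 ± 0.18 (7.81 and 7.72 against 6.66 and 6.49). Of 19 neuropeptides 4 rose and 2 fell, with a median of 0.16, against 4.67% higher and 4.3% lower of all genes. With 1 array left out 1 to 3 rose and 2 fell, and of the 4 rises that of Nppb was lost without any 1 array (adjusted p of 0.0947 to 0.130) and those of Cck and Adcyap1 in 3 of the 4 fits (up to 0.397 and 0.416). Th, the first enzyme of catecholamine synthesis, read 10.02 and 9.89 against 11.81 and 12.02 and fell by 1.96 ± 0.28 (adjusted p = 8.48e-06). Calb1, a calcium buffer that marks neuron subtypes, read 9.41 and 9.02 against 6.05 and 6.13 and rose by 3.13 ± 0.25 (adjusted p = 1.75e-11).

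Of 37 transmitter receptor subunits 3 rose, all of glycine or GABA receptors, and 5 fell (median 0.01), against 4.67% and 4.3% of all genes. With 1 array left out 2 rose and 2 or 3 fell. Glra2, a glycine receptor subunit, read 11.54 and 11.53 against 8.79 and 8.70 and rose by 2.79 ± 0.39 (adjusted p = 5.23e-06). Gabra4, a GABA receptor subunit, read 8.94 and 9.02 against 6.49 and 6.45 and rose by 2.51 ± 0.19 (adjusted p = 5.79e-12). Gabra3, another, rose by 1.18 ± 0.33, a call lost without any 1 array (adjusted p of 0.0708 to 0.138). Grin2a, a subunit of the NMDA-type glutamate receptor, read 7.34 and 6.99 against 8.83 and 8.90 and fell by 1.70 ± 0.27. The other falls were of Grin2b and Gria3, glutamate receptor subunits (-0.97 and -0.74), Chrna4, a nicotinic subunit (-0.43), and Gabrb2, a GABA subunit (-0.86). Grin2b and Gabrb2 lost their calls without any 1 array (adjusted p of 0.0639 to 0.173), Gria3 in 2 of the 4 fits. Htr1a, a serotonin receptor, read 6.95 and 6.65 against 8.93 and 8.93 and fell by 2.13 ± 0.20 (adjusted p = 2.86e-09).

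Of 36 potassium channel genes 2 rose and 5 fell (median -0.01), with 0 or 1 higher and 3 or 4 lower when 1 array was left out. Over all genes 4.67% were higher and 4.3% lower. Kcnk9, a leak channel that sets the resting potential, read 9.0 and 8.98 against 11.71 and 11.82 and fell by 2.78 ± 0.34 (adjusted p = 4.63e-07). Kcnq5, a channel that limits firing, fell by 0.90 ± 0.17. Shisa6, which modulates AMPA-type glutamate receptors, fell by 2.47 ± 0.30, and Cbln2, a secreted organiser of synapses, by 2.11 ± 0.30. Of 19 synapse and mature neuron genes Syt4, a vesicle protein, rose by 1.07 ± 0.23, and Nrxn3 and Syn1, of the presynaptic side, fell (-1.16 and -0.52).

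The other large changes were of mixed function. Eya1, a coactivator of transcription, read 7.99 and 7.96 against 10.96 and 11.12, below all other 11 CD14 arrays of the batch, and fell by 3.06 ± 0.39 on the log2 scale (adjusted p = 7.06e-07). Pappa2, a protease that frees insulin-like growth factors, fell by 2.25 ± 0.31, and its other 2 probe sets differed by -1.85 and -2.99. Fam163a, Plppr5, a phospholipid phosphatase-related protein, and Dock5, an activator of Rac, fell as well (-2.35, -2.19 and -2.13). Mt2, a metal-binding protein, fell by 2.02 ± 0.31 (9.80 and 9.70 against 11.75 and 11.80), but differed by only -0.90 from Pou3f1-FLAG (adjusted p = 0.238). Lypd1, which modulates nicotinic receptors, rose by 1.98 ± 0.29.

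**Figure D4:**
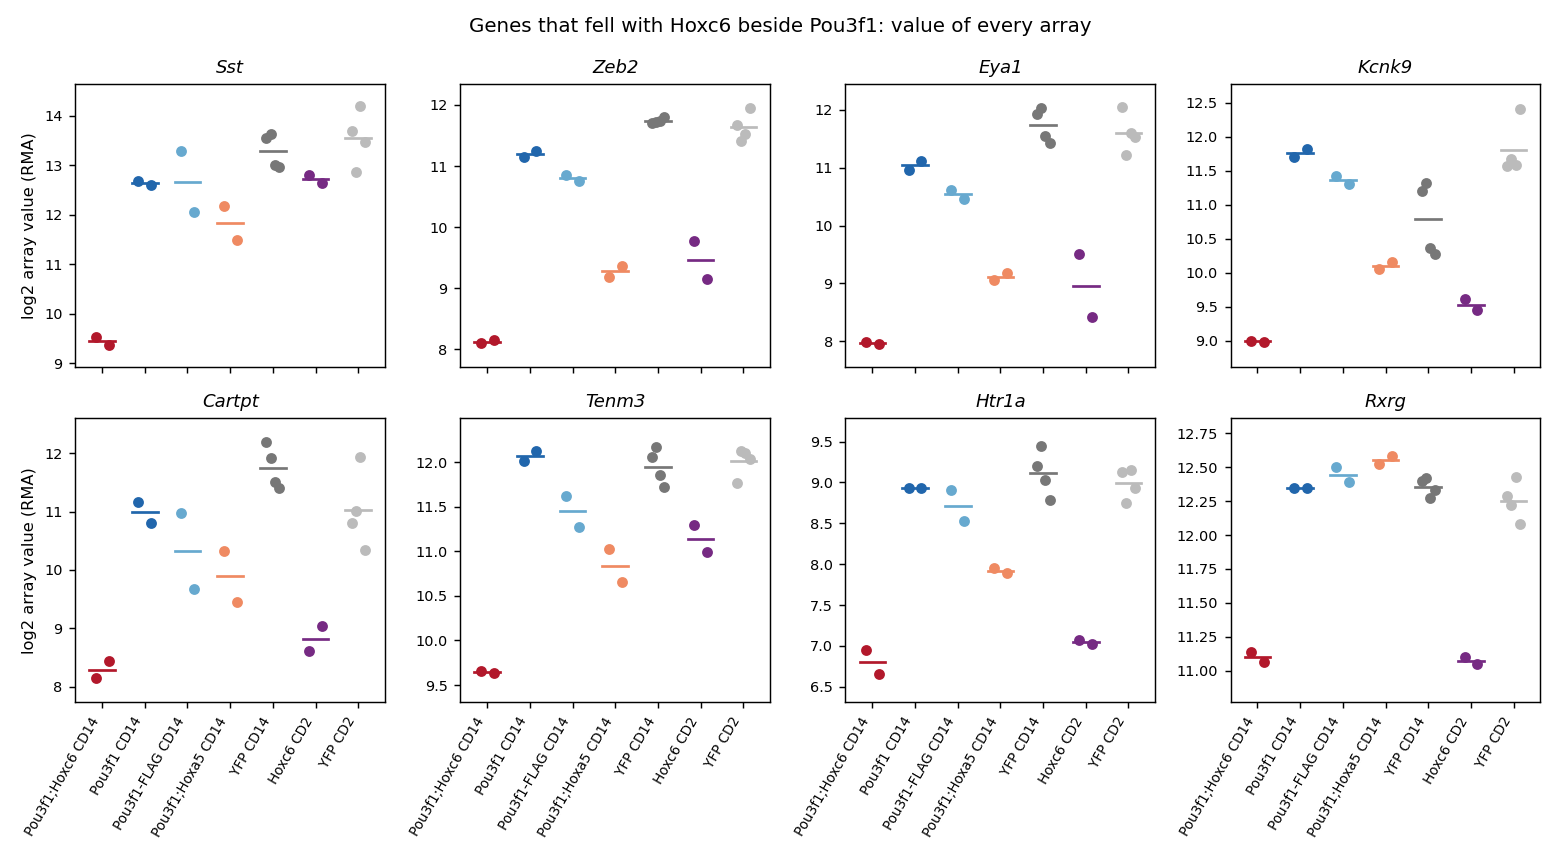
Log2 array values of 8 genes that fell, for each array of 7 groups (points are arrays, lines are group means). Zeb2 was at 8.10 and 8.15 in the Pou3f1;Hoxc6 arrays, at 9.19 and 9.36 with Pou3f1;Hoxa5 and at 10.75 or above in the other CD14 arrays drawn.

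Several of these genes were also displaced with the other Hox partner. Zeb2 read 9.19 and 9.36 and Eya1 9.06 and 9.17 in the Pou3f1;Hoxa5 arrays, and each fell by 1.92 on the log2 scale from Pou3f1 (adjusted p = 0.000113 for Zeb2). Ptn rose there by 1.38 and Crp by 1.65. Malat1 was 1.45 higher in them too (adjusted p = 0.0182), and Usp17ld fell by 1.84. Hoxc5, Hoxc6, Calb1, Cdh7 and Gabra4 differed by -0.23, 0.04, 0.10, -0.07 and -0.03 from Pou3f1. Both Hox pairs were set against the same Pou3f1 arrays, so these values are given side by side only.

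Hoxc6 induced alone in CD2 cells offered a comparison that shares no array with the one above. Its difference from CD2 YFP was estimated through the batch terms, since its batch 5 held no YFP array. That comparison changed 468 genes (2.35%), 240 higher (1.2%) and 228 lower (1.14%). Hoxc6 read 9.41 and 9.19 there against 6.34 to 7.00 with YFP, a rise of 3.03 ± 0.25 (adjusted p = 3.85e-10). Aldh1a2 read 13.25 and 13.54 against 7.18 to 8.09, a rise of 5.17 ± 0.63 (adjusted p = 1.70e-06). This comparison and the main one were tested in the same fit, with 1 estimate of spread per gene. Their calls share that estimate and so are not fully independent.

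Of the 15 largest rises beside Pou3f1, 13 also rose with Hoxc6 alone, where 1.2% of all genes were called higher. Hoxc6 itself, the gene induced in both settings, is among the 13. Glra2 and Hoxc4 were not called (1.51 and 1.43). Cdh7 rose by 3.82 ± 0.36, Gabra4 by 2.37 ± 0.25 and Hoxa5 by 2.75 ± 0.49. Of the 15 largest falls, 10 also fell alone, where 1.14% of all genes were called lower. Kcnk9, Htr1a, Cartpt and Zeb2 were among them (-2.33, -2.43, -3.14 and -2.13). Not called alone were Sst (-1.42, adjusted p = 0.0976), Chl1 (-1.63, 0.0517), Tenm3 (-0.68, 0.145), Pappa2 (-0.78) and Mt2 (-0.87). Which genes were called alone depended in part on single arrays. Without Hoxc6 replicate 2 those of Rgs4, Socs2, Dock5 and Shisa6 were lost (adjusted p of 0.155 to 0.191), and without Hoxc6 replicate 1 that of Hoxc5 (0.0664). Those of Hoxc5, Dock5 and Shisa6 were also lost without 1 of the YFP arrays (0.0507 to 0.0822). Others were gained: Glra2 (2.45, adjusted p = 0.00368) without Hoxc6 replicate 1, Chl1 (-2.15, 0.0161) without Hoxc6 replicate 2, Sst (-1.72, 0.0490) without YFP replicate 2 of batch 2 and Hoxc4 (1.62, 0.0461) without YFP replicate 1 of batch 3. The Hoxc6-alone arrays differed from each other for some genes, with Glra2 at 9.80 and 11.69 and Cdh20 at 9.07 and 10.60.

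The correspondence held for large changes and not for small ones. Among the 173 genes that changed by more than 1 beside Pou3f1, 153 (88.4%) had the same sign with Hoxc6 alone and 61 (35.3%) were also called there in that direction. Among the 660 called genes with changes under 0.5, 262 (39.7%) had the same sign and 15 (2.3%) were called, near the 44.3% same-sign share and the 2.35% called in either direction of all genes tested. Overall 136 genes were called in the same direction in both, which is 7.61% of the genes called beside Pou3f1 and 29.1% of those called alone, and 19 in opposite directions. Across all 19938 genes Pearson's r was 0.18 and Spearman's rho -0.04, as a description, since genes are not independent replicates and each fit shares its arrays over genes. Only 3 of the 12 phrenic genes rose alone, where 1.2% of all genes were higher, against 9 beside Pou3f1, where 4.67% were. That difference in counts was not tested as such, and 0 of the 12 passed the test of the difference given next.

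**Figure D5:**
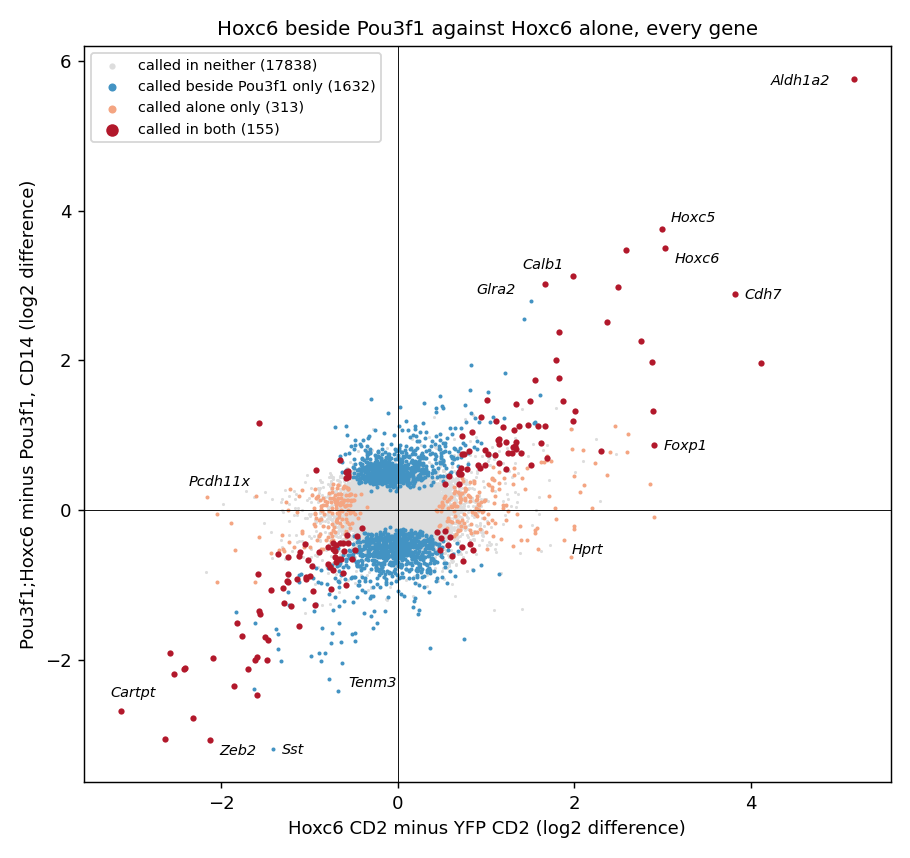
Log2 difference of every gene with Hoxc6 alone in CD2 cells (horizontal) and with Hoxc6 added to Pou3f1 in CD14 cells (vertical), coloured by call. Aldh1a2 lies at 5.17 and 5.76 in the upper right, and most genes called beside Pou3f1 lie near 0 on the horizontal axis.

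The difference between the 2 effects was tested directly and passed for 640 genes (3.21%, 331 higher and 309 lower). Reporter, batch and the presence of Pou3f1 differ together between the settings and cannot be told apart. With all arrays 0 of the 15 largest rises passed, and of the 15 largest falls Tenm3 did, with a difference between effects of -1.73 (adjusted p = 0.0013). Others passed with 1 array left out: Rgs4 (2.11, adjusted p = 0.00307) and Glra2 (2.23, 0.0324) without Hoxc6 replicate 2, Cdh7 (-1.56, 0.0424) without Hoxc6 replicate 1, and Sst (-1.95, 0.0425) and Pappa2 (-1.66, 0.0465) without YFP replicate 1 of batch 3. Foxp1 rose less beside Pou3f1 than alone, where it read 12.14 and 12.40 against 9.84 to 10.52 with YFP (2.91 ± 0.31, adjusted p = 1.26e-07). The difference between effects was -2.04 (adjusted p = 0.0021). Igf1r and Bmpr2, which fell beside Pou3f1, differed by 0.07 and 0.14 from YFP with Hoxc6 alone, and the difference between effects was -1.22 and -0.93 (adjusted p = 0.000827 and 0.0011). Trhr, the receptor for thyrotropin-releasing hormone, rose by 1.49 ± 0.19 beside Pou3f1 and differed by -0.30 alone (difference 1.79, adjusted p = 0.0012).

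Some of the same genes varied between the arrays of a parental line. H4, labelled as parental, was measured in CD2 cells once in each of batches 2, 4 and 5. Hoxc5 read 9.06, 12.47 and 8.72 there, Hoxa5 9.88, 12.53 and 9.38, and Aldh1a2 7.66, 10.10 and 8.31. The batch 4 array was thus high for each, and for Hoxc5 and Hoxa5 as high as the Pou3f1;Hoxc6 arrays. With 1 H4 array in a batch, batch and culture cannot be told apart. Zeb2 read 11.45, 9.82 and 12.14 and Eya1 11.15, 8.30 and 11.66 in H4, lowest in the same batch 4 array. Hoxc6 read 6.33, 7.36 and 6.27, Gabra4 6.12, 6.00 and 5.90 and Cdh7 6.68, 7.86 and 6.71, each below every Pou3f1;Hoxc6 array. Within batch 6 none of the 11 CD14 arrays without Hoxc6 reached the Pou3f1;Hoxc6 values of any of the 15 largest rises. The largest rises and falls were picked to lie beyond both Pou3f1 arrays, which are among the 11, and the rises include the induced Hoxc6. Of all called genes, 452 of the 931 higher and 413 of the 857 lower lay beyond all 11 arrays. Of the 15 largest falls, 11 lay below all of those arrays, and Shisa6, Pappa2, Dock5 and Htr1a overlapped at least 1 of them. How many of all genes tested lay beyond these 11 arrays was not counted, so no share over all genes stands beside these counts.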

How the data were processed

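RNA was measured with Affymetrix mouse gene arrays (68 arrays, 31 groups, 8 batches). Per the submitters' processing notes, the authors computed the deposited log2 values by RMA with oligo, whose version, like the annotation build, is not known here. Quantile normalization within RMA can hide a shift of most genes. No scanner files were used, so detection was not examined, and for arrays their number limits the precision. Medians of the 4 arrays were 7.58 to 7.69, and replicates correlated at 0.998 (Pou3f1;Hoxc6) and 0.997 (Pou3f1) across genes, with at most 2 genes identical.

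Of 35556 transcript clusters, 21789 had exactly 1 gene symbol, 1621 several and 12146 none; the cluster with the highest mean was kept for 999 genes with more than 1, leaving 19938 genes. limma 3.58.1 (R 4.3.3) fitted 1 term per group and 1 per batch (37 columns, 31 residual degrees of freedom, 6.08 prior) with lmFit and eBayes, two-sided, with Benjamini-Hochberg adjustment. The fitting script was tested on simulated data. No set test was run.

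Members and lists were chosen with earlier results of these data known, and so support nothing by themselves. Named genes were the 15 largest rises and falls without overlap between groups, up to 4 called genes per list, the 5 largest rises and falls in the other comparisons and a set of marker genes. RIKEN, predicted, olfactory, vomeronasal, microRNA and small nucleolar RNA genes were counted among the changes (155 of 931 higher, 29 of 857 lower) but not named by size. Negr1, Alcam, Cdh6, Cdh11, Cdh22, Cyp26b1, Rara, Gabrb2, Grin2b, Gria3, Chrna4, Cntfr, Igf1, Bdnf, Gdnf, Nrtn and Slc18a3 were named after their values were seen. Promoter sequences are RefSeq's.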

Additional observations from a re-analysis of the deposited data

Results flagged for a closer look

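A difference between the effect of Hoxc6 beside Pou3f1 in CD14 cells and its effect alone in CD2 cells was found for 640 genes by the limma contrast of the effects. Batch, reporter and the presence of Pou3f1 differ together in it and cannot be told apart. The count ran from 199 to 706 with 1 array left out, being 199 without Pou3f1;Hoxc6 replicate 2, 238 without Pou3f1 replicate 2, 305 without Pou3f1;Hoxc6 replicate 1, 307 without Hoxc6 replicate 1 and 343 without Pou3f1 replicate 1.

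Named genes whose effect was more positive beside Pou3f1 were Pcdh11x, a protocadherin (difference 2.34), Olfm3, a secreted olfactomedin (1.80), Trhr (1.79), Mgst3, a glutathione transferase of membranes (1.51), and Klhdc7b (1.46). Pcdh11x, Olfm3 and Mgst3 were not called beside Pou3f1 and fell with Hoxc6 alone (-2.16, -1.61 and -1.22).

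Those whose effect was more negative were Hprt, an enzyme of purine salvage (-2.28), Usp17ld (-2.21), Gpc3, a cell-surface proteoglycan (-2.16), Foxp1 (-2.04), Prdm8, a neuronal repressor (-2.02), Tenm3 (-1.73) and Ret (-0.92). Hprt, Gpc3 and Prdm8 were not called beside Pou3f1, and Usp17ld was not called alone. The differences of Pcdh11x, Olfm3, Gpc3, Prdm8 and Ret each lost their call without any 1 of the 4 arrays of Pou3f1;Hoxc6 and Pou3f1 (adjusted p of 0.0527 to 0.145) or without Hoxc6 replicate 1 (0.0693 to 0.148), and that of Hprt without Pou3f1 replicate 2 (adjusted p = 0.0568) or without Hoxc6 replicate 1 (0.0562).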

How the results depend on the processing

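With only the CD14 arrays of batch 6 in the fit, 4726 genes were called for Pou3f1;Hoxc6 against Pou3f1 (61.6% higher, against 52.1% as reported and 36.5% to 45.1% with 1 array left out) and 699 against Pou3f1-FLAG; with the 4 arrays alone 4903; with all CD14 arrays 5618 and 1014. Without batch terms 641 and 151 were called, and 101 for the difference between effects. Within batch 6 the log2 differences are the same in all these fits, so only the estimated spread changes; for the difference between effects the cause was not tested. Quantile normalization once more gave 801 for Hoxc6 alone (31.6% higher, against 51.3%) and 987 for the difference between effects (66.9% higher, against 51.7%), and moved the median of all genes from 0.07 to 0.04 in the main comparison; the cause was not tested. With 1 array left out, where the lone sample is assumed to vary like the other groups, counts ran from 573 to 914 for Pou3f1;Hoxc6 against Pou3f1, 345 to 517 for Hoxc6 alone, 199 to 706 for the difference between effects (619 without Hoxc6 replicate 2) and 155 to 197 against Pou3f1-FLAG. Other alternatives (without batch 4, dim genes left out, an intensity trend, the lowest cluster) kept these counts within 1.5 times. The balance moved more: without batch 4, 146 genes were higher and 242 lower for Hoxc6 alone (37.6% higher, against 51.3%). The replicate numbers did not pair the arrays (correlation of deviations -0.04, 2 pairs); with the number as a block 1700 genes were called, and 302 against Pou3f1-FLAG, and of the named genes Robo2 (adjusted p = 0.0550) and Cacna1c (0.0521) lost their call. Of 124 named genes 112 were called in the main comparison, of which 66 kept the call without any 1 array and 46 lost it without at least 1. Without batch terms 45 named genes lost their call and after a further quantile normalization 15, while fits with fewer groups gained up to 8. No named gene called in the main comparison changed direction under any alternative run, and those not called were not checked for it.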
